A study of Arabidopsis thaliana with 12 samples.

Results

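The genes described here are those whose place in the brightness order of the array was higher after recovery than in cold. Each probe was given its percentile rank, from dimmest (near 0) to brightest (100), among all 3439 probes of the same array, and ranks were averaged over the 6 samples of a group. The genes were chosen by these ranks, so the ranks describe them and support nothing: a gene was taken when it had a probe listed with that gene alone, its mean rank was at least 20 points higher in recovery than in cold, and its mean rank in recovery was at least 50. Of 692 probes with 1 gene, 40 (5.78%) met both thresholds, against 202 of all 3439 probes (5.87%). A list of 17 loci given with the rule was set aside; 7 of the 40 were on it and are not analysed here, which leaves 33 genes.

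Total RNA came from Arabidopsis thaliana wild-type plants of ecotype Columbia 0, a laboratory strain of thale cress. Plants of the recovery group spent 24 h at 20 °C after 24 h at 4 °C, in medium light throughout. Plants of the cold group were taken at the end of 24 h in medium light at 4 °C, a treatment that the labels call photoinhibitory. Each group held 6 samples numbered 1 to 6, both groups had thus been through the cold, and plants that were never chilled are not among the samples. The labels name no tissue, age or culture, so the spread between samples may be technical. Within a group, sample 1 was paired with 2, 3 with 4 and 5 with 6, and each pair was averaged. The labels do not say what the numbers mean, so this pairing is an assumption. An SD below is over 3 pair means, while ranges are over the 6 samples.

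Light damages photosystem II, and the damaged centre is rebuilt with newly made protein; cold slows this repair, so that light harms more than can be mended until warmth returns. Chloroplasts and mitochondria carry small genomes and ribosomes of their own, but most of their proteins, including those that process their RNA and insert their membrane proteins, are encoded in the nucleus. A percentile rank has no unit of amount: it says which share of the other probes on that array was dimmer, and it moves when the other probes move.

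The deposited signals differed between the groups as a whole. The median signal of a sample lay between 0.0971 and 0.128 in recovery and between 0.276 and 0.315 in cold, and 11.3% to 16.4% of probes were listed at 0 in recovery samples against 5.26% to 6.57% in cold samples. The Spearman correlation of signals over all probes was 0.855 to 0.908 between recovery samples, 0.940 to 0.981 between cold samples and 0.715 to 0.772 across the groups. Of 19 green-tissue markers, 4 had a probe of their own, and all 4 lay high on the array: LHCB1.5, an antenna protein of photosystem II, had a mean rank of 99.4 in recovery and 98.1 in cold. PSBW, a small subunit of photosystem II, was nearly level at 99.6 in recovery and 99.7 in cold, while PSAN, of photosystem I, was at 97.4 in recovery and 86.6 in cold, and PSBY, of photosystem II, at 94.8 in recovery and 87.7 in cold. The part of such shifts in the ranks of the 33 genes was not tested. None of the 15 markers of root, epidermis, guard cell or pollen had a probe of its own. In bulk RNA such as this, fewer cells of a type and less RNA per cell cannot be told apart.

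The 33 genes had a median rank of 60.1 in recovery and 31.3 in cold, and a median rank difference of 26.5 points, against 2.01 over all probes with 1 gene. These differences were used to choose the genes, so they are given as a description, with no test. The difference was at least 40 points for 4 genes, between 30 and 40 for 7 and between 20 and 30 for 22. Most genes started low: 9 had a cold rank under 25, 19 had one from 25 to 50, and 5 were already above 50. In recovery 16 of them had come no further than rank 60, 10 lay between 60 and 75, and 7 lay above 75. All 6 recovery ranks lay above all 6 cold ranks in 25 of the 33 genes; over all probes 19.0% were separated in that direction, and since this contrast chose the genes, nothing is read from the count. The other 8 genes were AT2G34050, AT1G12100, AT2G43180, TPP2, AT4G19430, AT3G57570, AT3G51510 and PAC. Between pair means only AT3G57570 still overlapped, and the other 32 were separate, as were 32.1% of all probes in that direction.

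**Figure D1:**
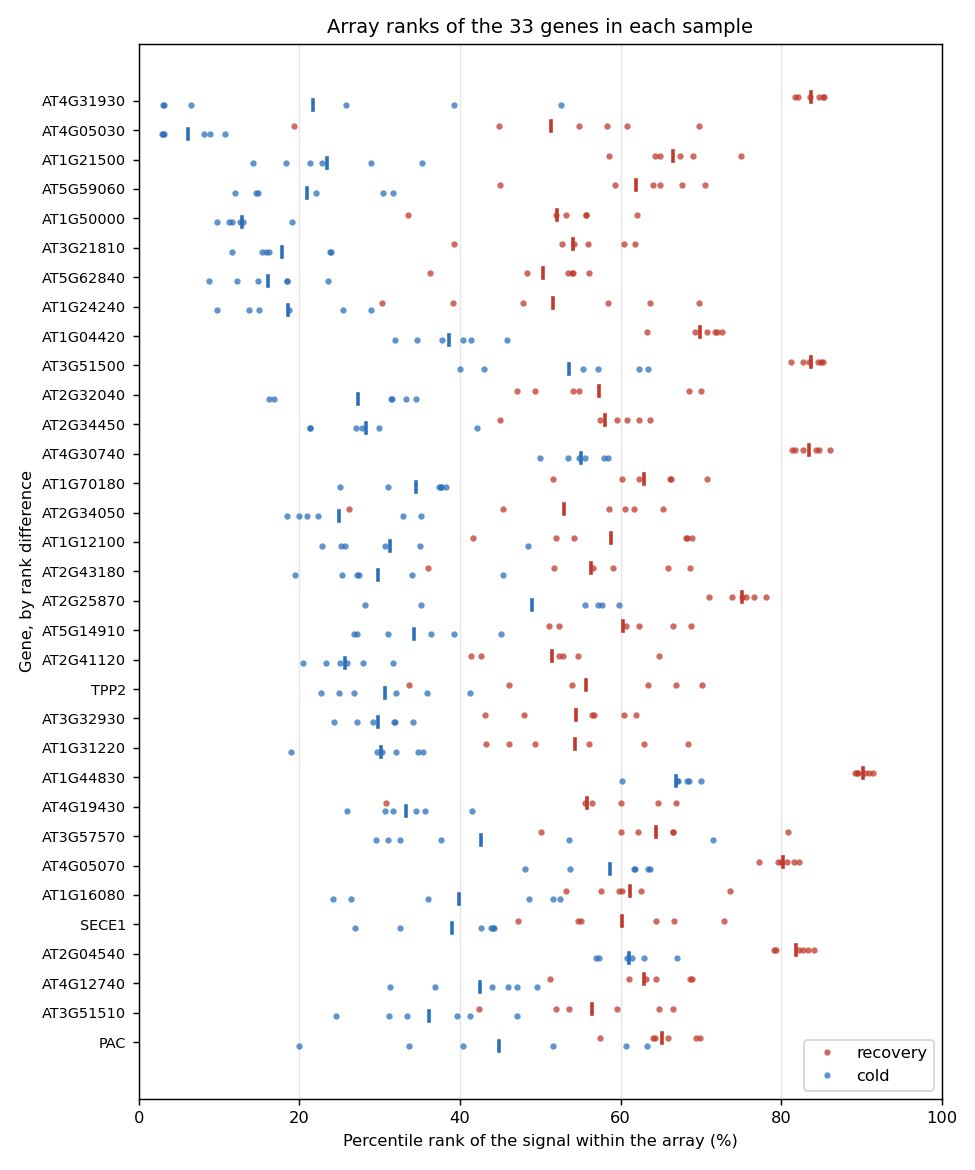
Percentile rank within the array (x axis, %) of the 33 genes, ordered from the largest rank difference at the top; points are the 6 recovery samples (red) and the 6 cold samples (blue), and a vertical bar marks each group's mean. Recovery points lie to the right of cold points for 25 genes.

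**Figure D2:**
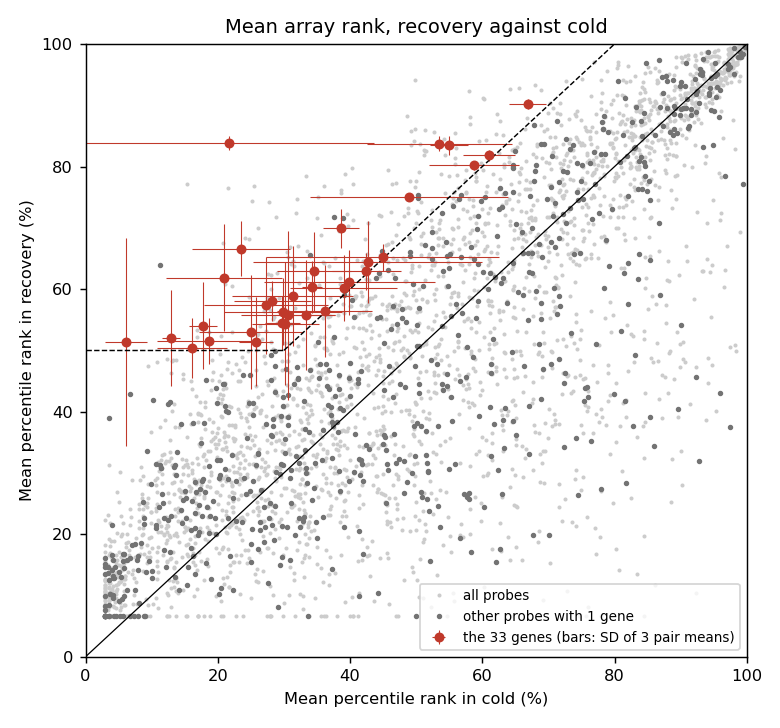
Mean rank in recovery (y axis, %) against mean rank in cold (x axis, %) for all probes (light grey), other probes with 1 gene (dark grey) and the 33 genes (red; error bars are the SD of 3 pair means). The dashed lines mark a rank of 50 in recovery and a difference of 20 points; dark points beyond both lines are the 7 loci set aside.

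Rank and deposited signal differed in direction for many of the genes. The scaling of the deposited signal is not known, so its direction and the signal ratios given here are not read as changes in RNA amount. A signal of 0.2 was brighter than 66.7% of probes in recovery (64.2% to 68.7% across samples) and than 36.6% of probes in cold (35.0% to 39.1%). A signal of 0.5 was brighter than 81.9% of probes in recovery and 67.2% in cold. A gene with a signal of 0.2 in both groups would thus differ by more than 20 points in rank. The mean deposited signal was higher in recovery for 16 of the 33 genes and lower for 17, against 16.2% of all probes with a higher mean in recovery. The median ratio of recovery to cold signal was 0.958 over the 33 genes and 0.434 over probes with 1 gene. In 4 genes all 6 recovery signals lay above all 6 cold signals (4.91% of all probes), in 0 genes they all lay below (49.2% of all probes), and in 29 the groups overlapped. After each sample was divided by its median, all 33 genes had a higher mean signal in recovery. The genes were chosen for a gain in rank, which largely fixed this outcome, so nothing is read from it. The same choice favoured higher signal ratios than those of other probes, so nothing is read from the contrasts with all probes either. Why the overall signals differed was not tested.

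**Figure D3:**
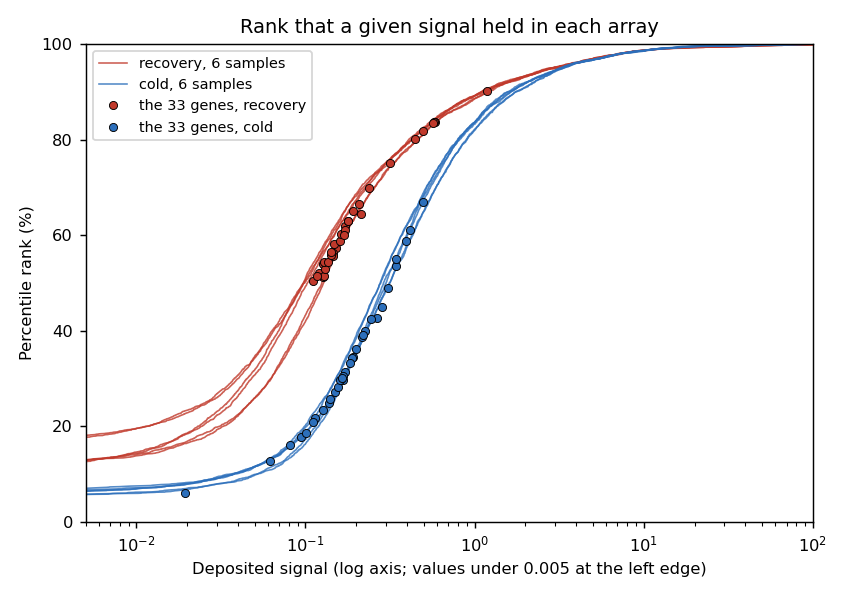
Percentile rank (y axis, %) that each deposited signal (x axis, log scale) held in the 6 recovery arrays (red lines) and the 6 cold arrays (blue lines), with the group means of the 33 genes as points. At a signal of 0.2 the recovery lines average 66.7% and the cold lines 36.6%.

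**Figure D4:**
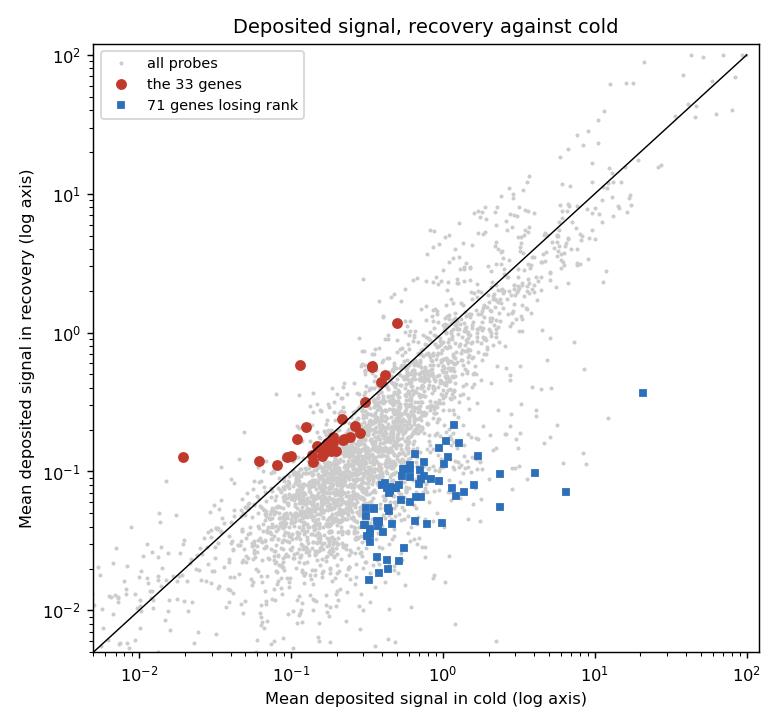
Mean deposited signal in recovery (y axis, log scale) against cold (x axis, log scale) for all probes above 0 in both groups (grey), the 33 genes (red circles) and 71 genes that lost at least 20 points from a cold rank of at least 50 (blue squares); the line marks equal signals. The 33 genes lie on both sides of the line, 16 above it and 17 below, and all 71 genes that lost rank lie below it.

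The reference tables give 3 of the genes a symbol of their own and the other 30 only a locus. Roles stated below for loci are general background on those loci, and 13 genes are given none. The genes with a stated role fall into 7 of organelle gene expression and assembly, 7 enzymes and transport proteins, and 6 regulators, DNA repair and protein breakdown genes. Their median rank differences were close, at 28.0, 27.5 and 26.7 points in that order, and 25.7 for the genes with no role given.

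Among the organelle genes AT4G31930, of the mitochondrial glycoprotein family of matrix proteins, had the largest rank difference of any probe on the array, 62.0 points. In recovery its rank was 81.7 at the lowest, 84.1 at the median and 85.4 at the highest; in cold it was 3.01, 16.2 and 52.5. Its recovery signals, in order of sample number, were 0.673, 0.636, 0.561, 0.485, 0.642 and 0.494. Its cold signals were 0.142, 0.00539, 0.315, 0.224, 0 and 0. The groups did not overlap, and cold samples 3 and 4 lay above the other cold samples. No fold change is given, since 2 cold samples are listed at 0.

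AT1G50000, of a family of ribosomal RNA methyltransferases, had ranks of 33.6, 54.4 and 62.0 in recovery (lowest, median, highest) and 9.77, 12.1 and 19.1 in cold. Its signal averaged 0.120 ± 0.0192 in recovery and 0.0618 ± 0.00728 in cold (SD, n = 3 each), a ratio of 1.93. Its ranks did not overlap, although its signals did: the lowest recovery signal was 0.0727 and the highest cold signal 0.0935. AT1G24240, of the ribosomal protein L19 family of large-subunit proteins, had ranks of 30.3, 53.2 and 69.8 in recovery and 9.77, 16.9 and 29.0 in cold, so the groups were separated by 1.37 points only. AT2G34050, of a family of assembly factors for the mitochondrial ATP synthase, had ranks of 26.1, 59.6 and 65.3 in recovery and 18.5, 21.6 and 35.2 in cold. Its signal was nearly level, 0.131 ± 0.0390 in recovery and 0.137 ± 0.0471 in cold, and 1 recovery sample, at a signal of 0.0287, lay within the cold ranks.

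AT2G25870, which encodes a protein with an endoribonuclease domain that acts in chloroplast ribosomal RNA processing, was the 1 locus on the array with 2 probes of its own, and they differed. On the probe that met the rule its ranks were 71.01, 75.4 and 78.1 in recovery and 28.1, 56.4 and 59.8 in cold. The mean ranks of that probe were 75.1 and 48.9, a difference of 26.2 points, and the pair of cold samples 3 and 4 averaged 31.7 while the other cold pairs averaged 56.4 and 58.7. On the second probe the mean rank was 51.8 in recovery and 61.6 in cold, a difference of -9.82. The second probe's signal was 0.116 ± 0.0314 in recovery and 0.449 ± 0.175 in cold (SD, n = 3 each), with every recovery sample below every cold sample. On the first probe the signals were 0.317 ± 0.0178 and 0.306 ± 0.111 in the same order. The rank gain of this locus thus rests on 1 of its 2 probes.

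SECE1, a subunit of the Sec translocase that moves proteins into and across the thylakoid membrane, had ranks of 47.2, 59.7 and 72.8 in recovery and 27.0, 43.2 and 44.2 in cold. Its signal was 0.168 ± 0.0460 in recovery and 0.220 ± 0.0601 in cold, a ratio of 0.767. PAC (PALE CRESS), a plastid RNA-binding protein without which chloroplasts fail to develop, had ranks of 57.5, 65.1 and 69.8 in recovery and 19.9, 46.0 and 63.2 in cold. Its signal ratio of 0.668 was the lowest of the 33 genes. The cold pairs of PAC averaged ranks of 62.0, 26.8 and 46.0, so its difference of 20.2 points, the smallest of all, was close to the spread of its cold samples (SD 17.6).

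Of the enzymes and transport proteins, AT2G04540, the mitochondrial ketoacyl synthase of fatty acid synthesis, had the highest rank in recovery. It had ranks of 79.1, 82.5 and 84.1 in recovery and 56.9, 61.1 and 67.1 in cold, with signals of 0.498 ± 0.0485 and 0.414 ± 0.0252 in that order (SD, n = 3 each). The ranks of the groups were 12.0 points apart, but the signals overlapped by a part of their range. AT1G04420, of the aldo-keto reductase superfamily, had ranks of 63.3, 71.2 and 72.6 in recovery and 31.9, 39.1 and 45.8 in cold. Its signal was 0.238 ± 0.0456 in recovery and 0.215 ± 0.0289 in cold, a ratio of 1.11, beside a rank difference of 31.3 points.

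AT5G62840, of the phosphoglycerate mutase family, had ranks of 36.3, 53.7 and 56.1 in recovery and 8.75, 16.7 and 23.6 in cold, and it ended at a mean of 50.4, just inside the threshold. AT2G32040, a folate transporter of the chloroplast envelope, had ranks of 47.2, 54.4 and 70.0 in recovery and 16.2, 31.5 and 34.5 in cold. Its signal was 0.152 ± 0.0562 in recovery and 0.149 ± 0.0445 in cold, so that a ratio of 1.02 stood beside a rank difference of 30.05 points. AT1G31220, the glycinamide ribonucleotide formyltransferase of purine synthesis, had ranks of 43.2, 52.7 and 68.5 in recovery and 19.0, 31.2 and 35.4 in cold, with a signal ratio of 0.821. The ranks of these 3 genes did not overlap between groups.

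AT1G12100, of the lipid transfer protein family, had ranks of 41.6, 61.2 and 68.9 in recovery and 22.9, 28.2 and 48.4 in cold. AT2G43180, of the family that holds isocitrate lyase and phosphoenolpyruvate mutase, had ranks of 36.1, 57.9 and 68.6 in recovery and 19.5, 27.3 and 45.4 in cold. Both overlapped between groups, and their signal ratios were 0.929 and 0.870.

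Among the regulators AT1G44830, a transcription factor gene of the ERF family, had the highest rank in recovery of all 33 genes. Its signals, in order of sample number, were 1.102, 1.13, 1.03, 1.301, 1.17 and 1.36 in recovery, and 0.535, 0.434, 0.507, 0.518, 0.471 and 0.518 in cold. The lowest recovery signal was well above the highest cold signal, and the means, 1.18 ± 0.0742 and 0.497 ± 0.0139 (SD, n = 3 each), stood at a ratio of 2.38. That ratio was the highest among the 31 genes that were above 0 in all 12 samples. Its ranks were 89.2, 90.0 and 91.5 in recovery and 60.2, 67.7 and 70.0 in cold.

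AT3G21810, of the CCCH zinc finger family, had ranks of 39.3, 55.1 and 61.8 in recovery and 11.6, 16.0 and 24.0 in cold, with a signal ratio of 1.35. AT2G34450, of the HMG-box family of DNA-bending proteins, had ranks of 45.0, 60.1 and 63.7 in recovery and 21.3, 27.4 and 42.1 in cold. The signal of AT2G34450 was nearly level, at a ratio of 0.944. AT1G70180, which encodes a protein with a sterile alpha motif, a domain of protein contacts, had ranks of 51.6, 64.2 and 70.8 in recovery and 25.1, 37.5 and 38.3 in cold, at a signal ratio of 0.934. The ranks of all 3 were separate between groups.

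AT4G12740, a homologue of the MutY glycosylase that removes mispaired adenine from oxidised DNA, had ranks of 51.3, 63.8 and 68.9 in recovery and 31.3, 45.0 and 49.6 in cold, and a signal ratio of 0.729. TPP2, the tripeptidyl peptidase II that cuts peptides downstream of the proteasome, had ranks of 33.6, 58.7 and 70.1 in recovery and 22.7, 29.5 and 41.3 in cold. The recovery pairs of TPP2 averaged 39.9, 62.1 and 65.1, and its lowest recovery sample lay within the cold range.

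The 13 genes with no role given include 2 whose signals, like those of AT4G31930 and AT1G44830, did not overlap between groups. AT3G51500 had signals of 0.452, 0.588 and 0.650 in recovery (lowest, median, highest) and 0.222, 0.382 and 0.413 in cold, and mean ranks of 83.7 and 53.5. AT4G30740 had signals of 0.466, 0.559 and 0.675 in recovery and 0.312, 0.347 and 0.380 in cold, and mean ranks of 83.5 and 55.0. Both signal ratios were close to each other, 1.67 for AT3G51500 and 1.66 for AT4G30740. The cold ranks of AT4G30740 ran from 49.96 to 58.4, whereas those of AT3G51500 ran from 40.01 to 63.4, with samples 3 and 4 lowest.

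AT4G05030 had the second largest rank difference, 45.2 points, from very dim signals. It stood at 0.106, 0.0299, 0.142, 0.119, 0.223 and 0.138 in the recovery samples in order of number, and at 0.0282, 0, 0.0572, 0.0313, 0 and 0 in the cold samples. Recovery sample 2 lay within the cold signals, 3 cold samples are listed at 0, and no fold change is given. Its ranks in recovery ran from 19.3 to 69.8, and the SD of its pair means there, 16.9, was the largest of the 33 genes.

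AT1G21500 had ranks of 58.6, 66.2 and 75.02 in recovery and 14.3, 22.1 and 35.2 in cold, and AT5G59060 had ranks of 45.0, 64.5 and 70.5 in recovery and 12.0, 18.5 and 31.6 in cold. Both lay above all their cold ranks in every recovery sample, at signal ratios of 1.64 and 1.56. AT4G05070 ended bright, with ranks of 77.3, 80.3 and 82.2 in recovery and 48.1, 61.7 and 63.7 in cold, at a signal ratio of 1.13.

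The remaining 7 genes of this group had lower mean signals in recovery, with mean ranks of 51.4 to 64.4 in recovery and 25.7 to 42.6 in cold. AT5G14910, AT2G41120, AT3G32930 and AT1G16080 had ranks that did not overlap, with signal ratios of 0.863, 0.848, 0.797 and 0.759 in that order. The gap of AT1G16080 was only 0.756 points. AT4G19430, AT3G57570 and AT3G51510 overlapped, with ratios of 0.770, 0.80 and 0.711. In AT3G57570 the cold pairs averaged ranks of 35.1, 30.3 and 62.5, and cold sample 6, at rank 71.5, exceeded 5 of its 6 recovery samples.

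Rank points were not even steps of signal: in recovery a signal of 0.1 was brighter than 47.7% of probes and 0.2 than 66.7%, whereas 0.5 was brighter than 81.9% and 1.0 than 88.9%, so SDs of ranks at different heights cannot be compared as agreement in signal. In cold the largest SDs were those of AT4G31930 (22.0), PAC (17.6), AT3G57570 (17.4) and AT2G25870 (15). Over the 33 genes the median SD was 5.30 points in recovery and 6.78 in cold, and the SD was larger in recovery for 13 of them. Probes with 1 gene went the other way: their median SD was 5.42 in recovery and 3.64 in cold. For 432 of these 692 probes the SD was larger in recovery. The rule set the rank heights of the 33 genes, with medians of 60.1 in recovery and 31.3 in cold. Probes with 1 gene had medians of 43.6 and 46.5 in that order, so nothing is read from this contrast.

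Recovery samples 1 and 2 stood lower than the other recovery samples for several genes. Their pair mean was the lowest of the 3 in 15 of the 33 genes (45.5%), against 32.2% of probes with 1 gene. The number of the 33 genes at or above rank 50 was 23 in recovery sample 1, 27 in sample 2 and 28 to 32 in the other 4 recovery samples, against 5 to 8 in cold samples. The median rank of the 33 genes in a sample lay between 57.5 and 64.7 in recovery and between 29.9 and 35.0 in cold. Group differences in this count and median follow from the rule that chose the genes, so nothing is read from them. Recovery samples 1 and 2 also had the highest median signals of their group, 0.125 and 0.128, and the part of this in the ranks was not tested.

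The smallest differences inside the threshold were those of PAC (20.2 points), AT3G51510 (20.3), AT4G12740 (20.4) and AT2G04540 (20.7). Just outside it were RALFL32 (18.6), AT2G06040 (18.5), AT5G34870 (18.3) and UBA1A (18.2). By recovery rank, AT5G62840 (50.4) and AT4G05030 (51.3) were the last inside, and AT2G29180 (49.2) and AT4G16060 (46.0) the first outside. Of the 33 genes, 21 met the rule whichever of the 12 samples was left out. The other 12 missed it in at least 1 case, among them PAC, met in 7 of 12, and AT3G51510, met in 6 of 12.

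In the fit of all 3439 probes by limma after quantile normalization, with an adjusted p threshold of 0.05 (Benjamini-Hochberg), 31 of the 33 genes were called higher in recovery and AT3G57570 and PAC were not called. Over all probes 21.4% were called higher, and since the contrast is the one that chose the genes, nothing is read from the count. The balance over all probes depended on the scaling, with 735 higher and 664 lower after quantile normalization, 192 higher and 2024 lower as deposited, and 1237 higher and 535 lower with samples centred on their medians.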

How the data were processed

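The deposited table holds a signal for 3439 probes in 12 samples, on a linear scale, never negative and at most 100. The array type and how the authors made the deposited signal (background, scaling, what 0 stands for) are not given in the sources used here. The highest mean signal of any probe was 99.999999999 in recovery and 99.7 in cold. With a ceiling of 100, a single probe thus stood at about 100 in every recovery sample. Signals may be relative to the brightest probe of each array, which was not tested. Signal ratios between groups would then depend on that probe. Probes were named from the platform annotation: 692 list 1 gene, 870 several and 1877 are not listed. Symbols were updated through a RefSeq gene table (TAIR10.1), used for names and gene order only, in which 690 of the 692 matched. Promoter and protein sequences were not used here.

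Percentile ranks (mean rank for ties) were taken within each sample as deposited with pandas 2.3.3 (Python 3.11.15) and averaged over 6 samples per group. The 33 genes and all lists were chosen with earlier results of these data known. Role groups were set after the names had been seen. Genes are named by size of rank difference, recovery rank and closeness to the thresholds; the other chosen genes were named afterwards so that each is accounted for.

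The fit over all probes used limma 3.58.1 (R 4.3.3; lmFit, eBayes with trend) on log2(signal + 0.0415), the pseudocount being the 10th percentile of positive signals, quantile normalized, with samples 1 and 2, 3 and 4, and 5 and 6 averaged. Within these pairs deviations from the group mean correlated at 0.336 to 0.503 in cold and -0.0326 to 0.0627 in recovery. Deviations from a mean that includes the same samples correlate negatively when samples are independent. The low values in recovery thus do not show that its samples were unpaired. Averaging follows an earlier treatment and counts fewer samples. The number of arrays limits the precision, and no batch is given. Figures were drawn with matplotlib 3.10.9.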

Additional observations from a re-analysis of the deposited data

Results flagged for a closer look

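In 7 of 66 sets of 6 ranks (33 genes, both groups), 1 sample stood apart from its group by Dixon's criterion for 6 samples. By chance the criterion flags about 1 set in 20 for independent, normally distributed values. Percentile ranks are bounded and the genes were chosen on them, so no excess is read from the count. In recovery, AT1G50000 was at rank 33.6 in sample 2 (next lowest 52.0), AT1G04420 at 63.3 in sample 4 (next 69.3), AT2G34450 at 45.0 in sample 3 (next 57.5) and AT4G19430 at 30.8 in sample 1 (next 55.6). In cold, AT1G50000 was at 19.1 in sample 5 (next highest 13.0), AT1G31220 at 19.0 in sample 4 (next lowest 29.7) and AT1G44830 at 60.2 in sample 2 (next lowest 67.0). The 4 low recovery values fell in 4 different samples. AT4G19430 in recovery sample 1, with a signal of 0.0645, is the value that made its groups overlap in rank.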

How the results depend on the processing

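The number of genes depended on the thresholds: a rank difference of at least 25 points gave 21 genes and of at least 15 gave 48, and a recovery rank of at least 60 gave 17 and of at least 40 gave 45, as subsets or supersets of the 33 by construction. Taking ranks of the group mean signal, the median rank difference of the 33 genes was 29.8 instead of 26.5 points. The count of genes with a higher mean signal in recovery was 16 as deposited and 33 with each sample divided by its median, 33 with each divided by its 75th percentile and 33 after quantile normalization. A gain in rank largely fixes the sign under these scalings, so nothing is read from the counts of 33. Over all probes 2216 passed as deposited (192 higher, 2024 lower) and 1764 with the 12 samples taken as independent (953 higher, 811 lower), against 1399.

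With 1 sample left out, the rule chose 29 to 34 genes, the median rank difference was 25.6 to 27.5 points, 25 to 29 genes had separate ranks, 14 to 18 had a higher mean signal, and 1284 to 1400 probes passed. Leaving out pairs was chosen after seeing the data and gave 27 to 38 genes (38 without recovery samples 1 and 2) and 1089 to 1345 probes. No gene's rank difference changed sign in 462 recomputations with samples left out, other ranks or medians, and the lowest was 15.2. Since the rule required a difference of at least 20 points, a change of sign was unlikely from the start, and nothing is read from this.

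Across groups, deviations from the group mean correlated at 0.0564, 0.120 and -0.00500 for same-numbered pairs. For same-numbered single samples they correlated at 0.00536 (sample 5) to 0.146 (sample 3). The labels do not say whether the numbers pair samples across groups, and these values cannot decide it. With the replicate number as a block 1381 probes passed (708 higher, 673 lower). Signals near 0 limit what can be measured for AT4G05030 and AT4G31930.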

Other observations

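Besides the 33 genes, 31 of 870 probes listed with several genes (3.56%) and 131 of 1877 probes not listed (6.98%) passed both thresholds, and they carry no gene name here.

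Of 13 pairs of measured genes that are direct neighbours in the gene table, 1 had both genes among the 33. These are AT3G51500, with a rank difference of 30.2 points, and AT3G51510, with 20.3. Their mean signals differed in opposite directions, with overlap between the groups for AT3G51510: 0.572 ± 0.0696 in recovery and 0.341 ± 0.0937 in cold for AT3G51500, against 0.141 ± 0.0449 in recovery and 0.199 ± 0.0343 in cold for AT3G51510 (SD, n = 3 each). AT4G05030 and AT4G05070 lie with 3 genes between them and had differences of 45.2 and 21.5 points. AT3G32930, another of the 33, gained 24.7 points, while its direct neighbour AT3G32940 had a difference of -16.2. With 1 gene between, AT1G50000 (39.2 points) lies near AT1G50020 (-19.3), and AT1G70180 (28.4) near AT1G70200 (-13.6). In the other pairs of a chosen gene with a measured gene, with 1 to 4 genes between, the second gene differed by -8.46 to 10.9 points. These pairs were noticed in the data and were not tested.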
